A study of Mus musculus with 2 samples.

Results

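Among the 3223 peaks of NRF1 on nuclear chromosomes of mouse skeletal muscle, 324 (10.1%, Wilson 95% interval 9.06 to 11.1) had nothing close to the NRF1 palindrome near their summit. These peaks were chosen from the sequence alone. They are the peaks with no copy of GCGCATGCGC with at most 2 mismatches, on either strand, that lies within 100 bp of the summit. The 2899 other peaks held such a copy. The peaks came from chromatin immunoprecipitation followed by sequencing (ChIP-seq), in which an antibody recovers a DNA-binding protein together with the DNA it occupies. The 2 libraries of the series carry the same labels, wild-type skeletal muscle and the NRF1 antibody, with no treatment or age given. A single list of peaks, named after replicate 1, was analysed, and replicate 2 is called input DNA in the reporting summary of the study. Values therefore have no replicate error, the read depth is unknown, and intervals and p-values cover counting over peaks only.

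NRF1 (nuclear respiratory factor 1) is known as an activator of nuclear genes of the respiratory chain and of many housekeeping genes. It binds as a dimer, and each subunit contacts one side of the palindrome. A single side is called a half-site here and reads GCGCA, or TGCGC on the opposite strand. Promoters rich in CpG dinucleotides are the usual place of NRF1 in the genome. In the study it was profiled beside the glucocorticoid receptor and the histone demethylase LSD1, to learn where these proteins meet in muscle.

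Most of the 324 peaks were promoter peaks that still held a half-site. In 235 cases the summit lay in a promoter, taken as the 1000 bp upstream and 100 bp downstream of a RefSeq transcription start. The other 89 were in introns (27), coding exons (10), other exons and untranslated regions (13) or between genes (39). Of the 235 promoter peaks, 208 (88.5%, 83.8 to 92.0) held at least 1 half-site in the window of 100 bp on either side of the summit, against 97.0% of the other promoter peaks. Outside promoters the share was 40 of 89 (44.9%, 35.0 to 55.3), against 96.8% of the other peaks there. The rule sets part of this contrast, since a copy with at most 1 mismatch always contains a half-site, and 1719 of the 2372 other promoter peaks had such a copy. Where the best match had 2 mismatches, the half-site was in 89.0% (86.3 to 91.2) of 653 promoter peaks and in 89.0% (83.0 to 93.0) of 154 peaks elsewhere. For the 5 strongest promoter peaks and for Spg11 and Pdxdc1, which were picked after their sequences had been seen, 30 bases are printed around the half-site nearest to the summit, or around the summit where there was none. The sequence was read from the plus strand of the RefSeq GRCm38 assembly, which is the mm10 build, and capitals mark half-sites on either strand.
Fau and Mrpl49, chr19:6057783-6057812: cccgcctccctcTGCGCGCGCAggccacaa
Kdm1b and Tpmt, chr13:47043453-47043482: gctgccgagatTGCGCAgtggcggaaatca
Dido1 and Gid8, chr2:180710047-180710076: ccgaagagttcTGCGCAaaaacggaagttg
Dph3 and Oxnad1, chr14:32085700-32085729: gatggtgcttccTGCGCAgcagcgtTGCGC
Dcaf17 and Mettl8, chr2:71055573-71055602: acccgacccacTGCGCAgccctacgGCGCA
Spg11, chr2:122118408-122118437: cgtcacggaccTGCGCAgtgattcggacct
Pdxdc1, chr16:13903278-13903307: caggtaaaatactatcgactcagctgcacg
In 5 of these 7 stretches the capitals include TGCGCA, in which a half-site and its reverse complement overlap by 4 bases. Over all 235 promoter peaks without a near match, TGCGCA was in 36.2% of the windows. At Fau and Mrpl49 the half-sites instead face each other with no base between them. Pdxdc1 was the only one of the 12 promoter peaks of highest fold enrichment with no half-site in its window, but this peak holds an exact palindrome centred 113.5 bp from the summit.

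The half-sites lay where the summits were. In the 235 promoter peaks there were 442 copies, and 237 of them (53.6%) were centred within 25 bp of the summit, where an even spread over the window would put 25.9%. For the 2372 other promoter peaks the share was 58.1%. The copy nearest to the summit was at a median of 14 bp in the 208 promoter peaks that had one, against 10 bp in the other promoter peaks. The 40 peaks outside promoters that held a half-site had their nearest copy at a median of 15.5 bp. Per 20 bp bin, promoter peaks without a near match had 46.4 copies per 100 peaks just after the summit. From 200 to 220 bp after it they had 6.38.

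**Figure D1:**
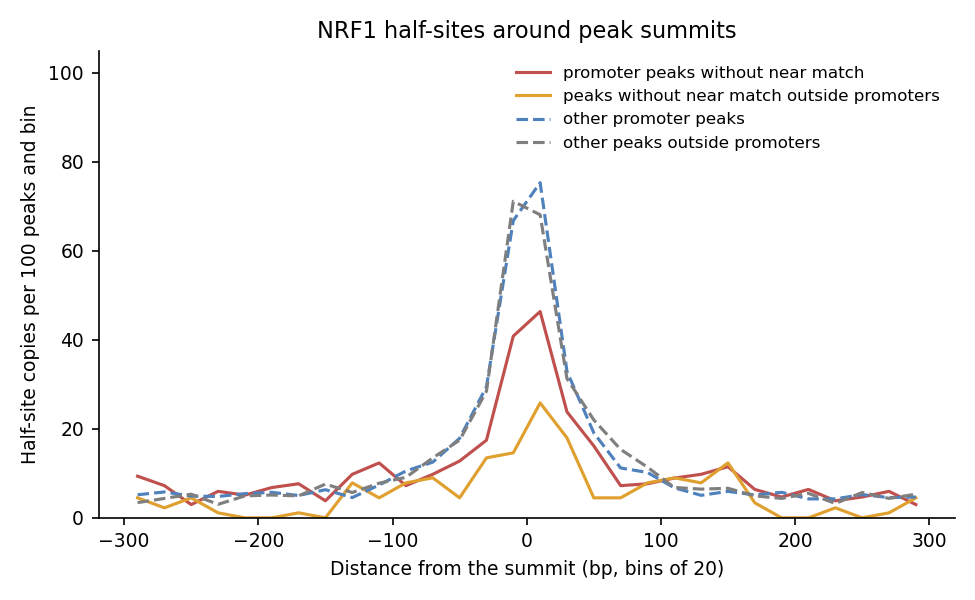
Copies of the NRF1 half-site per 100 peaks in bins of 20 bp, against the distance from the summit in bp, for peaks without a near match (solid lines) and other peaks (dashed lines), in and outside promoters. All 4 lines are highest at the summit, and promoter peaks without a near match reach 46.4 copies per 100 peaks.

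Among all words of 6 bases, counted with their reverse complements in the 235 promoter peaks, CTGCGC had the largest excess at the centre. It occurred within 30 bp of the summit in 113 peaks, and in 22 and 27 peaks in zones of the same length centred 90 bp before and after. CTGCGC is a half-site with 1 more base, and it also ranked first in the 2372 other promoter peaks, with 1229 in the centre. In the peaks without a near match outside promoters it ranked first too, with 22 of 89. The words were ranked on the same peaks, so these counts describe them and test nothing.

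The way half-sites were arranged differed between the sets in part because of the rule. The spacing of the palindrome, the spacing with 1 base between copies on the same strand and facing copies with 2 bases between could not occur in peaks without a near match. The overlapping form TGCGCA was in 85 of the 235 promoter peaks (36.2%, 30.3 to 42.5) and in 21 of the 89 peaks elsewhere (23.6%, 16.0 to 33.4). It was in 54.3% of the other promoter peaks and in 7.59% of the windows at 25999 starts of protein-coding transcripts. Half-sites that face each other with no base between, as at Fau and Mrpl49, were in 19 promoter peaks without a near match (8.09%). This form was in 33 of 2372 other promoter peaks (1.39%) and in 70 of 25999 start windows (0.269%). Of the 263 peaks whose best match had 3 mismatches, 125 (47.5%, 41.6 to 53.6) had all 3 on one side, which left the other side intact. Among start windows whose best match had 3 mismatches, 1206 of 9930 (12.1%, 11.5 to 12.8) were of this kind.

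GC content differed little between these promoter peaks and the others, and 4 other promoter motifs were about as frequent as in start windows of like GC content. The median GC content of the window was 67.2% in promoter peaks without a near match and 66.7% in other promoter peaks. For comparison, 6001 windows at protein-coding starts with no peak within 2000 bp and a GC content of 61.4% to 72.1%, the quartile range of the promoter peaks without a near match, were taken. The half-site was in 43.5% of these windows and TGCGCA in 5.55%. GGGCGG, the core bound by the SP and KLF factors, was in 71.5% (65.4 to 76.9) of the promoter peaks without a near match and 65.6% of these windows. CCGGAAG, bound by ETS factors, was in 17.4% (13.1 to 22.8) against 15.2%. CCAAT, the site of NFY, was in 29.4% (23.9 to 35.5) against 27.6%, and TGACG, which is part of the cyclic AMP response element, in 26.0% (20.8 to 31.9) against 26.2%. The intervals of these 4 motifs covered the share in the windows of like GC content, whereas the interval of the NRF1 half-site lay far above it. Against other promoter peaks the intervals of GGGCGG and CCAAT lay above the share, which was 64.8% and 22.85%. Those of CCGGAAG and TGACG covered it, at 15.3% and 28.2%. The differences in these 4 motifs were not tested. The E-box CANNTG, in which N is any base, was less frequent than in the windows of like GC content. It was in 39.15% (33.13 to 45.52) of the promoter peaks without a near match, against 46.28% of those windows. Of other promoter peaks 43.55% held it, and its differences were not tested either. The specific forms CAGCTG and CACGTG were not less frequent. They were in 13.2% and 8.51% of the promoter peaks without a near match, against 13.1% and 7.865% of the windows of like GC content. AGAACA, a half-site of the glucocorticoid receptor, was in 12 of the 235 promoter peaks (5.11%, 2.94 to 8.71). Other promoter peaks held it in 5.40% and the windows of like GC content in 4.60%. Outside promoters it was in 12 of the 89 peaks without a near match (13.5%, 7.88 to 22.1). The share was 6.64% (4.81 to 9.10) in other peaks outside promoters, 10.1% in all start windows and 11.1% in starts without a peak. No windows of like GC content were taken for the 89 peaks, whose GC quartiles were 39.3% and 65.2%. These differences were not tested. Both receptor half-sites with 3 bases between were in 0 of the 235, 0 of the 89 and 0 of 25999 start windows. Both strands were searched for each motif. A match of letters describes a window and is not evidence of a bound factor.

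**Figure D2:**
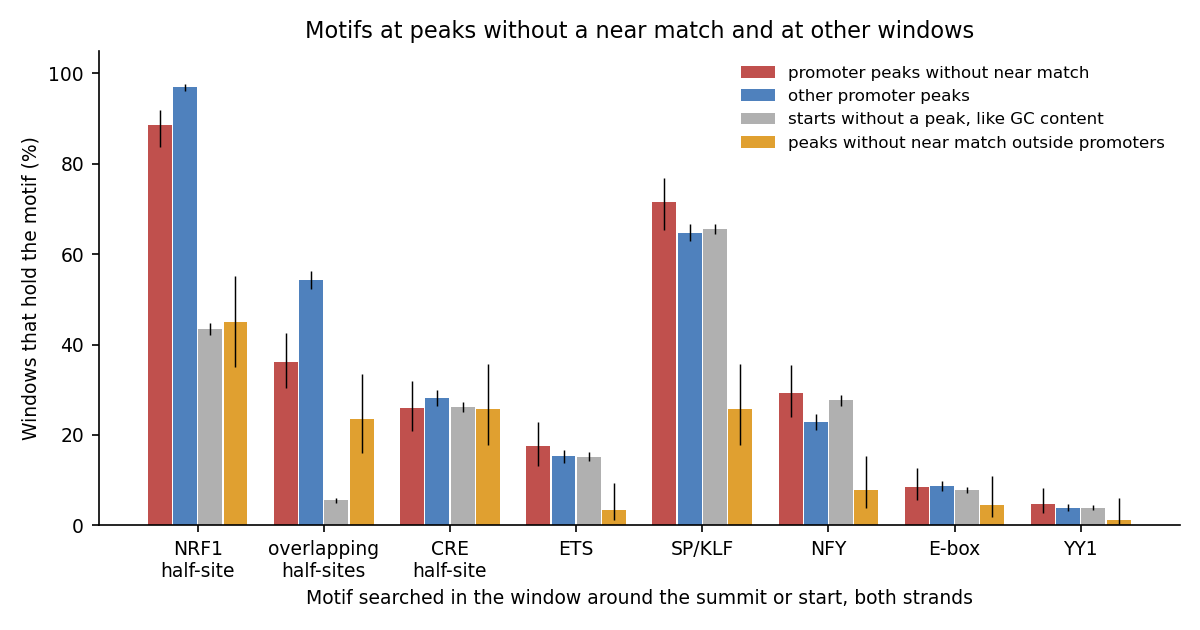
Share of windows around the summit or start, in percent, that hold each motif on either strand, with Wilson 95% intervals as error bars, for promoter peaks without a near match, other promoter peaks, starts without a peak of like GC content and peaks without a near match outside promoters. The half-site stands at 88.5%, 97.0%, 43.5% and 44.9% in these sets, while SP/KLF, ETS and CRE half-sites in promoter peaks lie near the windows of like GC content. The bars labelled E-box are for CACGTG only.

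Peaks without a near match were weaker than the rest. Fold enrichment is the authors' ratio of ChIP signal to control background at the summit. Its median was 6.98 (quartiles 5.25 and 9.82, range 1.74 to 80.1) against 11.1 (7.89 and 16.1) in the other peaks. The median −log10 q was 10.7 against 25.1, and the median width 220 against 299 bp. By definition 50% of all nuclear peaks were above the common median of 10.7. Of the 324 peaks, 64 were above it (19.8%, 15.8 to 24.4), against 53.4% of the others, an odds ratio of 0.215 (Fisher's exact test, two-sided, adjusted p = 1.96e-31 over 4 tests). Within promoters 50 of 235 (21.3%) against 56.5% were above that median (odds ratio 0.208, adjusted p = 1.87e-25, same exact test). Outside promoters it was 14 of 89 (15.7%) against 39.5% (odds ratio 0.286, adjusted p = 1.05e-05, same exact test).

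Fold enrichment was lower with each further mismatch of the best match, up to 3 mismatches. In promoters the median was 14.3 with an exact copy, 12.7 with 1 mismatch and 9.10 with 2. It was 7.51 with 3 mismatches, just past the limit of the rule, and 7.92 with 4 or more (18 peaks). Between 2 and 3 mismatches the quartile ranges overlapped widely, from 6.73 to 12.7 and from 5.36 to 10.1. Among promoter peaks without a near match, the median was 5.38 with no half-site (27 peaks), 7.29 with 1 (62 peaks), 7.70 with 2 (91 peaks) and 8.78 with 3 (36 peaks). With 4 or more it was 7.51 (19 peaks). These medians are descriptions without a test.

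**Figure D3:**
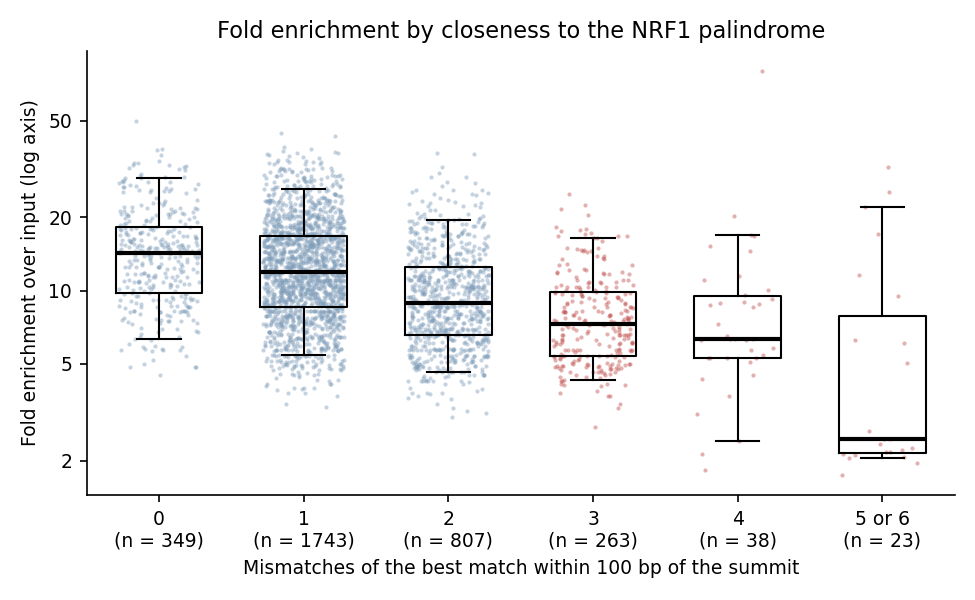
Fold enrichment over input (log axis) of every nuclear peak, grouped by the number of mismatches of its best match to the palindrome within 100 bp of the summit. Points are peaks (red for peaks without a near match), boxes give the median and quartiles and whiskers the 5th and 95th percentiles. The median falls from 14.3 with an exact copy to 7.29 with 3 mismatches.

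Near matches further out were counted next. Within 200 bp of the summit 73 of the 324 peaks (22.5%, 18.3 to 27.4) held a copy with at most 2 mismatches, and within 500 bp 148 did (45.7%, 40.3 to 51.1). Among the 12 promoter peaks of highest fold enrichment 7 had such a copy within 200 bp, and 4 had one with at most 1 mismatch (Gpatch8, Msh3, Pdxdc1 and Pnn). For copies with at most 1 mismatch the counts were 24 and 50. The background was taken from 4991 windows at protein-coding starts that had the GC content given above, no peak and no near match within 100 bp. Of the promoter peaks 23.4% (18.5 to 29.2) held a copy with at most 2 mismatches within 200 bp, against 12.8% of these starts. Within 500 bp the shares were 50.2% (43.9 to 56.5) and 34.1%. For copies with at most 1 mismatch they were 7.66% (4.90 to 11.8) and 0.882% within 200 bp, and 14.9% (10.9 to 20.01) and 3.09% within 500 bp. The starts were chosen for having no peak, and the shares were not tested. Inside the borders of the peak itself, 43 peaks held a copy with at most 2 mismatches and 4 held an exact one. Of the 324 peaks, 27 had another peak with a near match within 1000 bp. That neighbour had the higher fold enrichment in 20 of the 27 cases. Peaks with a near match were stronger in general (median 11.1 against 6.98), so this count is not particular to neighbours. The count for pairs that are not neighbours was not taken. A next peak of either kind lay within 1000 bp for 41 of the 324 peaks (12.7%), against 4.28% of the 2899 other peaks. The median fold enrichment of the 27 peaks was 5.72, against 7.25 for the other peaks without a near match.

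The 5 strongest promoter peaks without a near match each lay in the promoters of 2 genes. Promoters of 2 or more genes held 40 of the 235 peaks (17.0%, 12.8 to 22.4), against 17.3% of other promoter peaks. Fau, which encodes a ribosomal protein fused to a ubiquitin-like protein, and Mrpl49, a protein of the mitochondrial ribosome, shared the strongest peak (chr19:6057610-6057946, fold enrichment 25.03). Kdm1b, which encodes LSD2, the paralog of LSD1, and Tpmt, thiopurine methyltransferase, shared a peak at 22.5 (chr13:47043239-47043592). Dido1, a chromatin reader, and Gid8, a subunit of a ubiquitin ligase, shared one at 21.7. Dph3, needed for the diphthamide of elongation factor 2, and Oxnad1 shared one at 20.5. Dcaf17, a substrate receptor of a cullin ligase, and Mettl8, a methyltransferase of mitochondrial tRNA, shared one at 20.3. The best match at this last peak had 4 mismatches. Single promoters followed. Srfbp1 had a fold enrichment of 18.3, the DNA mismatch repair gene Msh3 17.9, Spg11, which acts in lysosome renewal, 17.7 and Gpatch8 17.6. Irf2bp2, a corepressor, had 17.3, the splicing regulator Pnn 17.1 and Pdxdc1 16.9. At the low end were Vdac1, a channel of the outer mitochondrial membrane, at 3.31, Brat1 at 3.41, the shared promoter of the centrosomal genes Cep170 and Sdccag8 at 3.70, and Ncoa5 and Ifrd2 at 3.70 each.

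The 235 promoter peaks were in promoters of 266 protein-coding genes, which is 9.47% of the 2808 coding genes with any promoter peak. Of these 266, 20 also had another promoter peak. Respiratory chain and ribosome genes were present at shares near this background. In the respiratory chain 4 of 48 genes with a promoter peak had one without a near match. These were Coq8a, of ubiquinone synthesis, at a fold enrichment of 11.8, Ndufv1 at 8.56 and Ndufc1 at 7.09, both of complex I, and Cox14, a factor for complex IV assembly, at 8.28. In the mitochondrial ribosome 3 of 26 had one, namely Mrpl49 (25.03), Mrps6 (8.56) and Mrpl51 (4.72). In the cytosolic ribosome it was 3 of 24, Fau (25.03), Rpl23 (8.24) and Rps9 (5.38). In the list of mitochondrial carriers, import and dynamics, which also holds channels and chaperonins, 6 of 22 did. Among these were Slc25a32, the mitochondrial folate carrier, at 16.8, Fis1, a receptor of mitochondrial fission, at 16.8, Mtfr1l at 11.7, Vdac2 at 4.44 and Vdac1 at 3.31.

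Genes of protein breakdown were also among the targets. In the proteasome 1 of 12 genes with a promoter peak had one without a near match, the regulatory subunit Psmd2 at a fold enrichment of 13.5. In the list of ubiquitin enzymes 15 of 88 did, from Dcaf17 (20.3) and Dcaf13 (16.8) to Usp34 (4.57), with Trim25 at 10.1 and the ligase scaffold Cul4a at 6.71. In autophagy 2 of 16 did, Rb1cc1, which encodes the FIP200 subunit of the initiating kinase complex, at 12.1, and the protease Atg4b at 7.51. Another list held 23 catabolic loci, and it is not independent of these data, in which most of them were picked. Promoter peaks were found at 15 of them, and 0 of the 15 lacked a near match, which allows a share of up to 20.4% (Wilson). Splicing and RNA-binding proteins had 9 of 51, among them Pnn (17.1) and Clp1 (14.7). Centrosome and cilium genes had 9 of 41, among them Bbs9 (16.4) and Cep250 (10.1). Cell cycle, replication and repair genes had 6 of 52, among them Aurka (13.5), Cdk4 (12.7) and Msh3 (17.9). Translation factors and tRNA synthetases had 2 of 37, RNA helicases 1 of 14, and histones and chromatin enzymes 6 of 38. Zinc finger proteins had 6 of 85, vesicle traffic 3 of 60 and kinases and phosphatases 2 of 47. Solute carriers had 4 of 31 and sarcomere genes 1 of 4, the fast-fiber actinin Actn3 at 4.84. Lists were counted without a test.

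The 89 peaks outside promoters were of several kinds, and 29 of the 324 peaks fell into 3 classes that held no half-site at all. The classes were recognised after the positions and sequences had been seen. They were 4 peaks in coding exons of Nr3c1, the glucocorticoid receptor gene, 6 in tandem repeats of GGAAT and 19 with a fold enrichment under 3.3. The remaining 60 peaks outside promoters held a half-site in 40 cases (66.7%, 54.1 to 77.3). Many of these 40 were close to a start. With 1, 2, 3 and 4 or more half-sites (7, 19, 7 and 7 peaks) the median signed distance was 266, 276, 299 and 113 bp. The spread was wide, with quartiles of −3787 and 1394 bp for the 19 peaks. For the 49 peaks outside promoters with no half-site the median was 24290 bp. All 324 peaks together lay in promoters less often than the others, 72.5% against 81.8%, where 80.9% of all nuclear peaks did (odds ratio 0.587, Fisher's exact test, two-sided, adjusted p = 0.000102). Without the 3 classes the shares were 79.7% and 81.8% (odds ratio 0.869, adjusted p = 0.345, same exact test). Without windows of at least 50% soft-masked bases, that is, bases marked as repeats in the assembly, the odds ratio was 0.755 and the adjusted p 0.0624. All 29 peaks of the classes lie outside promoters, so that leaving them out could only raise the promoter share. With the fold enrichment limit of 3.3 alone the odds ratio was 0.745 and the adjusted p 0.0444.

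**Figure D4:**
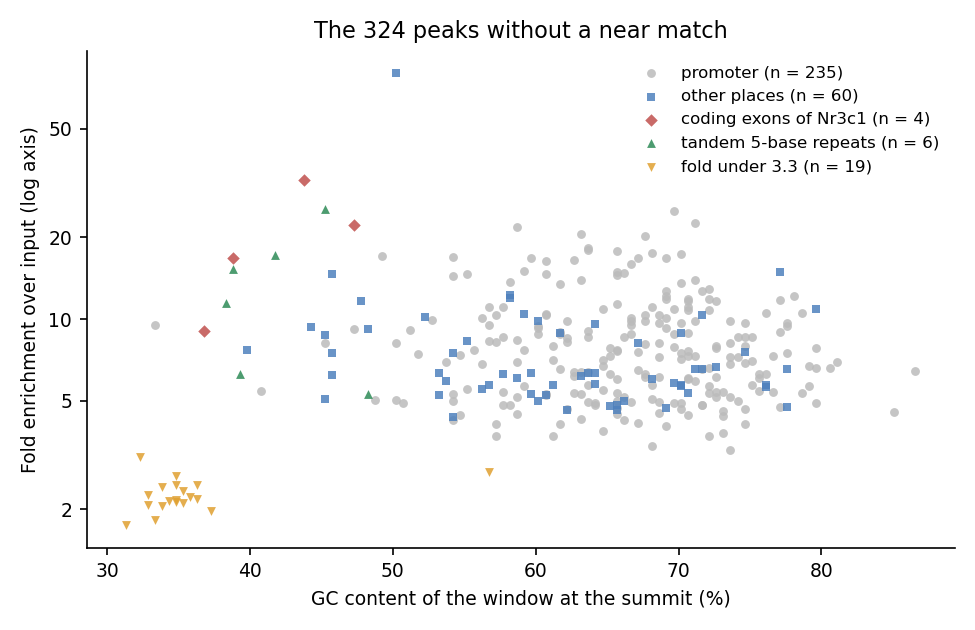
Fold enrichment over input (log axis) against the GC content, in percent, of the window at the summit, for each of the 324 peaks without a near match, marked by class. Of the 19 peaks of fold enrichment under 3.3, 18 lie at a GC content of 31.3% to 37.3% and 1 at 56.7%, and the peaks of Nr3c1 exons and of tandem repeats have a median GC content of 41.3% and 40.5%, to the left of most promoter peaks, with median fold enrichments of 19.5 and 13.4.

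Nr3c1, which encodes the glucocorticoid receptor, carried peak summits in its coding exons and none in its introns. It had 4 peaks, all without a near match, which is 4 of the 10 coding-exon peaks of this kind. The first coding exon held peaks of fold enrichment 32.4 (chr18:39486031-39486332) and 22.1 (chr18:39486508-39486733), each wholly inside the exon. Over coding exons 3 and 8 the values were 16.8 and 9.03. Both of these peaks covered the whole coding part of the exon and reached past it on either side, so that 53.7% and 63.7% of their bases were coding. Coding exon 3 lies between coding exons 2 and 4, so the bases of its peak past the exon are intronic. The bases past the coding part of exon 8 were not split into untranslated and intronic ones. The coding exons sum to 2379 of the 78735 bases of the gene. The 4 windows had a median GC content of 41.3%, a median observed-to-expected CpG ratio of 0.237 and no half-site. Their best matches had 4 or 5 mismatches. What gave rise to these peaks, and whether they stem from muscle chromatin, was not tested.

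**Figure D5:**
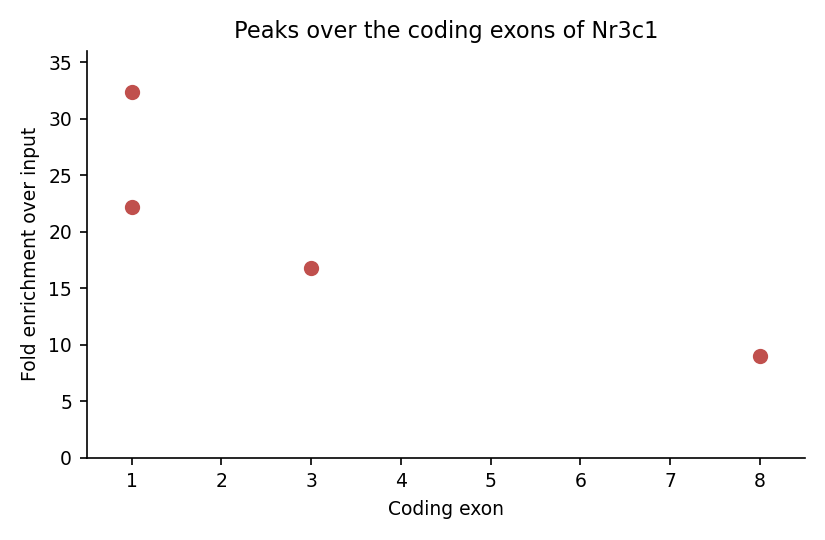
Fold enrichment over input of each peak over the 8 coding exons of Nr3c1, against the number of the coding exon counted from the start codon. Points are peaks, all without a near match. The values are 32.4 and 22.1 over exon 1, 16.8 over exon 3 and 9.03 over exon 8, and the other coding exons have no peak.

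A second class consisted of tandem repeats. At least 3 copies of GGAAT in a row, on either strand, stood in 6 of the 324 windows, in 0 of the 2899 other peaks and in 0 of 25999 start windows. The strongest lay between genes on chromosome 17 (chr17:4626227-4626637) at 25.4, and its window held 29 copies of the unit. Next came an intron of D130079A08Rik at 17.2, a site on chromosome 1 at 15.3 and one on the X chromosome at 11.4. The remaining 2, on chromosome 11 and in an intron of Ano2, were at 6.26 and 5.29. At the first 2 sites the best match had 6 mismatches, the most of any peak. The summit sequences of the 3 strongest are shown because the repeat is visible in them.
Intergenic, chr17:4626303-4626383: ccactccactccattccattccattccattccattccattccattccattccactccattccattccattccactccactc
D130079A08Rik intron, chr14:104336947-104337027: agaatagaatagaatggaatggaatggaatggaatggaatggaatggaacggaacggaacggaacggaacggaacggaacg
Intergenic, chr1:12644767-12644847: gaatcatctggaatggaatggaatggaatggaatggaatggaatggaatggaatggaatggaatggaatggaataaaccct
The chromosome 17 site reads the repeat on the opposite strand, as ATTCC.

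The third class held the 19 weakest peaks, with fold enrichments of 1.74 to 3.11 and −log10 q of 2.43 to 37.7. They were gathered at 6 places. Chromosome 9 had 6 within chr9:2999998-3035979, chromosome 14 had 5 within chr14:19415780-19419476 and chromosome 2 had 5 within chr2:98662250-98667352. Single ones were on chromosomes 6, 9 and 17. Their median GC content was 34.8%, and a median of 96.0% of the window was soft-masked. The one on chromosome 17 differed, with a GC content of 56.7% and no soft-masked base. Only 3 of the other 2899 peaks had a fold enrichment under 3.3. The summit stretches from chromosomes 9 and 2 are given because they are nearly the same sequence, with 78 of 81 bases identical. Words of 15 bases from the chromosome 9 stretch, on either strand, were in the windows of 14 of the 19 peaks. These were all 7 on chromosome 9, all 5 on chromosome 14 and 2 of the 5 on chromosome 2. None of the 305 other peaks without a near match and none of the 2899 other peaks held such a word.
Chromosome 9, chr9:3000078-3000158: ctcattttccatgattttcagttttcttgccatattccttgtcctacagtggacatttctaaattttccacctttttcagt
Chromosome 2, chr2:98663820-98663900: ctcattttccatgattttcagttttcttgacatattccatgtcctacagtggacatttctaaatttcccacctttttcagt
Reads that align to several places were removed by the authors, and the blacklist named in the methods belongs to a human genome build. The part of either step in these peaks was not tested.

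The top value of all nuclear peaks also belonged to these peaks. It was a fold enrichment of 80.1, with a −log10 q of 238.6, in an intron of the sodium-phosphate cotransporter gene Slc34a3 (chr2:25233590-25233932), 505 bp from its nearest start. The window held no half-site, and its best match had 4 mismatches. Of the 12 peaks of highest fold enrichment outside promoters, 3 held a half-site. They were at Mbd2, Kdm4a and the overlapping genes Gm21992 and Rbm14. These summits lay 113, 109 and 106 bp after the nearest start, just past the promoter limit of 100 bp. The peak at an exon of Mbd2, which encodes a protein that binds methylated DNA, had a fold enrichment of 14.9. Kdm4a, a histone demethylase gene, had a peak at 12.3 (109 bp after the start, 2 half-sites), and Gm21992 and Rbm14 had one at 11.96 (1 half-site). Of genes of oxidative metabolism, Cox7a2, a subunit of complex IV, had such a peak in an untranslated or non-coding exon at 5.72, and the mitochondrial ribosome gene Dap3 one at 6.58, with 1 and 3 half-sites.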

How the data were processed

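ChIP-seq with an NRF1 antibody was performed on wild-type mouse skeletal muscle, and 1 peak list was used. Per the study's methods, the authors aligned single-end reads to mm10 with Bowtie, kept reads that mapped once, removed blacklisted regions and called peaks with MACS2 against input. The deposited list holds a score, a fold enrichment (a ratio), and p-values and q-values as −log10. The deposited score and p-values were not used. These methods name broad peak calling, but the file has narrow peaks, and their number is not that of the study's text, so it may be another version of the list. No read counts or depth were given, so their part in the fold enrichments, q-values and peak calls could not be checked.

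Sequence, transcripts and soft-masking were from RefSeq GRCm38. The search for the palindrome covered both strands of the 100 bp on either side of a summit, and it was tested on planted copies. Known transcripts defined promoters (1000 bp before to 100 bp after a start). Differences of shares were tested with two-sided Fisher's exact tests and Benjamini-Hochberg adjustment over 4 tests, in SciPy 1.17.1 and Python 3.11.15. Intervals are Wilson 95% intervals. Neighbouring peaks are not independent. The members, motifs, gene lists and tests were chosen with earlier results of these data known. Named peaks were the 12 highest and 5 lowest by fold enrichment in and outside promoters, the 5 highest with the most mismatches, and those of mitochondrial, proteolysis and autophagy genes. Genes named from other lists and the peaks of the 3 classes were chosen after their values were seen. Some peaks covered by this rule, and sequence of chromosome 18, are not reported here.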

Additional observations from a re-analysis of the deposited data

How the results depend on the processing

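Other settings were tried for 7 results with 62 values, of which 52 led to the same call or a like value, 0 changed direction and the others follow. The number of peaks without a near match was 565 with a search within 50 bp, 1131 when only copies with at most 1 mismatch counted and 61 when up to 3 mismatches counted. The odds ratio of lying in a promoter ranged from 0.0927 to 0.869. It was 0.755 (adjusted p = 0.0624, Fisher's exact test) without windows at least 50% soft-masked and 0.869 (adjusted p = 0.345) without the 3 classes. The latter setting, and one without the exons of Nr3c1, were chosen after seeing the data. For being above the median fold enrichment, the median was taken anew among the peaks kept in each setting. The odds ratio ranged from 0.199 to 0.339 over all peaks, from 0.191 to 0.336 in promoters and from 0.202 to 0.414 outside. Settings over all peaks also included the upper quartile of fold enrichment as the limit, and −log10 q in place of fold enrichment. The odds ratio kept its call in each. The log2 ratio of median fold enrichments was −0.67, and −0.53 with a search within 50 bp, −0.53 at a q-value of at most 1e-05, −0.60 at a fold enrichment of at least 3.3 and −0.62 without soft-masked windows, and −0.61 without the 3 classes. The count of coding genes with such a promoter peak was 278 to 298 under other promoter definitions. No paired analysis was possible because the list comes from 1 library, and no replicate could be left out for the same reason. With unknown depth, a missing near match or peak says nothing about weaker sites.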
